A study of Homo sapiens with 16 samples.

Results

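The miR-361 gene gives rise to 2 mature miRNAs, hsa-miR-361-3p and hsa-miR-361-5p, one from each arm of its hairpin. Both were followed through 16 small RNA libraries of cells and extracellular vesicles (EVs), as 2 of the 915 entries of the miRNA table. hsa-miR-361-3p was chosen by its measured values, since earlier results of these data had shown it at a low level in exoRNeasy EVs of PC3 beside PC3 cells. Its levels are therefore given below as a description, with no test. hsa-miR-361-5p was taken as the other arm, and a further entry, hsa-mir-361, counts reads given the name of the hairpin.

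The libraries form 8 groups of 2. They come from wild-type, untreated PC3, derived from a prostate cancer, and MDA-MB-231, derived from a breast cancer, both kept in DMEM with 5% FBS per the labels. The paper gives a higher share of FBS for MDA-MB-231 than these labels. For each line there are cells and EVs isolated from conditioned media (CM) by next-gen ATPS, ultracentrifugation (UC) or the Qiagen exoRNeasy kit. Per the paper, EV donor cells were starved without serum before CM was taken. Next-gen ATPS parts EVs between polyethylene glycol and dextran and then removes the dextran with dextranase. TRIzol was used for the RNA of cells and of EVs from next-gen ATPS or UC, whereas the exoRNeasy kit both captures EVs and purifies their RNA, so that isolation and extraction cannot be told apart for the kit. The label of the UC libraries is VC, which was taken to mean UC since it is the remaining method the sources describe. No source used here tells if the 2 libraries of each group were grown separately. The p-values below therefore rest on a spread between libraries that may be technical only.

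A miRNA is cut from a hairpin in 2 steps, by Drosha in the nucleus and Dicer in the cytoplasm, and 1 strand of the resulting duplex is usually kept by an Argonaute protein while the other is degraded. The kept strand recognises target messenger RNAs mainly through bases 2 to 8, the seed. Cells release part of their miRNAs in EVs, where the lipid membrane protects them from RNases, and miRNAs are also found outside vesicles in protein complexes. hsa-miR-361-5p is known for targeting VEGFA, the angiogenic growth factor. EV isolation methods are known to differ in the mixture of vesicles and other particles they recover.

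The mature sequences are shown because the arms carry different seeds. They come from RefSeq for GRCh38.p14, which held both members, are written 5′ to 3′, and have the seed in capitals.
hsa-miR-361-3p: uCCCCCAGgugugauucugauuu
hsa-miR-361-5p: uUAUCAGAaucuccagggguac
The 3p arm has 23 bases and 6 C, 5 of which follow its first base as an unbroken run. The 5p arm has 22 bases. Among 2370 mature names in the RefSeq table no other had the seed of either arm, so neither belongs to a seed family there.

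The hairpin is shown to place both arms, which are in capitals.
hsa-mir-361: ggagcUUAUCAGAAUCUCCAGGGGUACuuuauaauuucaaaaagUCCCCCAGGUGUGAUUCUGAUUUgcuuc
Of its 72 bases, 6 to 27 are the 5p arm and 45 to 67 the 3p arm, with 17 bases of loop between them. Folding with RNAfold gave a minimum free energy of -31.4 kcal/mol, and 16 of 25 base pairs joined the arms. MIR361 lies on the minus strand of chrX:85903636-85903707, with the 3p arm at chrX:85903641-85903663 and the 5p arm at chrX:85903681-85903702. It is in intron 9 of CHM (chrX:85861180-86047561, minus strand), 7553 bases from exon 9 and 2447 bases from exon 10 of transcript CHM-201 in GENCODE 44. CHM encodes a Rab escort protein, and its loss causes choroideremia, a degeneration of the retina. The 3p arm matched the genome once, and each of its 6 windows of 18 bases, the shortest read kept by the authors, also matched once. The 5p arm matched once over its whole length, but only 2 of its 5 windows did and the others had up to 12 matches, so that short 5p reads could be shared with other places.

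The miRNA reads recovered per library ranged from 1982 to 26726 in EVs and from 34422 to 97408 in 3 of the 4 cell libraries. MDA-MB-231 cell replicate 2 stood apart with 153 reads. Values are named TPM, and each is a number of reads scaled so that the miRNA reads of a library sum to 1000000, which means that 1 read was worth 10.3 to 6536 TPM. Intervals given for single libraries are exact Clopper-Pearson 95% intervals, which cover counting error only because reads carried no molecular identifiers. The lines are labelled epithelial, and the markers of that class in the table were few. The other epithelial miRNAs looked for, miR-141, miR-429, miR-203a, miR-205 and miR-375, were not listed. The 3 epithelial miRNAs listed (miR-200 family) summed to 113 to 174 TPM in PC3 cells and 0 to 135 TPM in MDA-MB-231 cells, with hsa-miR-200a-3p at 0 in MDA-MB-231 cells. hsa-miR-200a-3p and hsa-miR-200c-3p had no read in any PC3 EV group, where 0 reads allow up to 205 to 1196 TPM per library. In MDA-MB-231 cells, 0 reads allow up to 67.6 TPM in replicate 1 and 19608 TPM in replicate 2. Of the miRNAs of blood cells and liver only hsa-miR-486-5p was listed, at 0 to 1009 TPM across libraries and at 0 in both exoRNeasy libraries of PC3. There 0 reads allow up to 949 and 1196 TPM, so no lower level is shown. The part of hsa-miR-486-5p in the results was not tested.

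In PC3, hsa-miR-361-3p was one of the most abundant miRNAs of cells and of EVs from next-gen ATPS or UC, and had few reads in exoRNeasy EVs. PC3 cells held 835 and 2485 reads of hsa-miR-361-3p, or 24258 and 25511 TPM. The next-gen ATPS EV libraries held 196 and 185 reads, or 38990 and 40113 TPM. For UC EVs the reads were 644 and 526, and the levels 44073 and 36238 TPM. These levels put it between the 4th and the 8th place among all entries of a library. The exoRNeasy EV libraries held 8 and 7 reads, or 2530 TPM (95% interval 1093 to 4979) and 2791 TPM (95% interval 1123 to 5742). There it stood in 31st and 27th place, and both intervals ended below the lowest value of any other PC3 library.

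In MDA-MB-231, hsa-miR-361-3p was highest in cells and lower in all 3 kinds of EV, and replicates of next-gen ATPS and UC EVs were far apart. Cell replicate 1 held 417 reads, or 9398 TPM (95% interval 8521 to 10340). Cell replicate 2 held 2 reads, or 13072 TPM, with an interval of 1587 to 46421 that takes in 3 of the 6 EV libraries of the line. The next-gen ATPS EV libraries held 16 and 35 reads, which gave 1850 TPM (95% interval 1058 to 3003) and 7209 TPM (95% interval 5026 to 10012). The UC EV libraries held 18 and 116 reads, which gave 728 TPM (95% interval 431 to 1150) and 4340 TPM (95% interval 3588 to 5204). In both pairs replicate 2 was the higher one, and the intervals did not overlap. The exoRNeasy EV libraries held 3 and 2 reads, or 614 and 1009 TPM, the lowest levels of the line together with UC replicate 1.

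**Figure D1:**
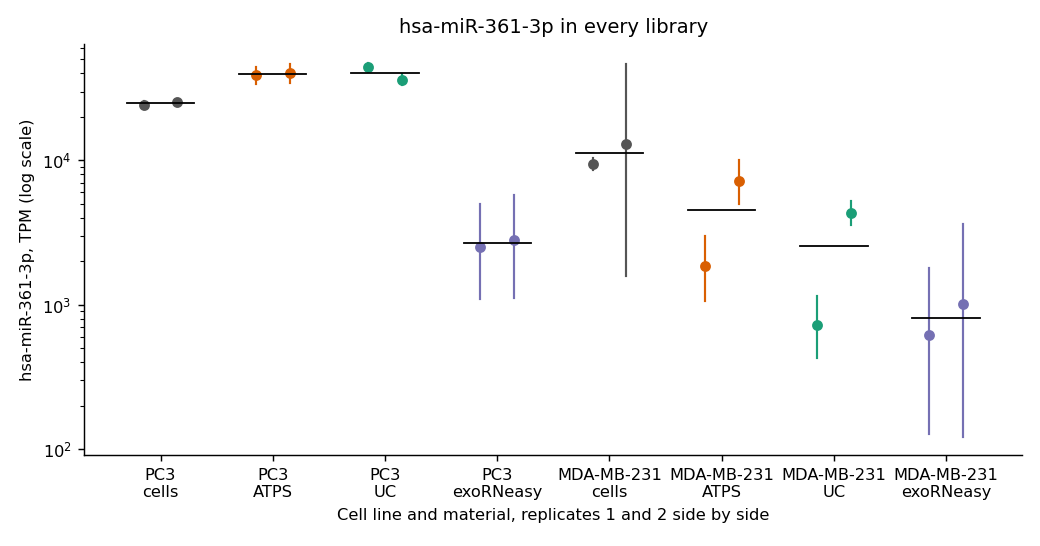
Level of hsa-miR-361-3p in TPM (log scale) in each of the 16 libraries, by cell line and material; points are libraries, vertical lines exact 95% counting intervals and horizontal bars group means. The PC3 cell, next-gen ATPS and UC libraries sit between 24258 and 44073 TPM, the PC3 exoRNeasy libraries at 2530 and 2791 TPM, and the MDA-MB-231 EV libraries between 614 and 7209 TPM.

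Ordered by mean level, the groups ran from PC3 UC EVs at 40156 ± 5540 TPM (SD, n = 2) and PC3 next-gen ATPS EVs at 39551 ± 794 TPM (SD, n = 2), whose libraries overlapped. PC3 cells followed at 24885 ± 886 TPM (SD, n = 2) and MDA-MB-231 cells at 11235 ± 2598 TPM (SD, n = 2), each apart from its neighbours in this order. Below them came MDA-MB-231 next-gen ATPS EVs at 4530 ± 3789 TPM, PC3 exoRNeasy EVs at 2661 ± 185 TPM, MDA-MB-231 UC EVs at 2534 ± 2554 TPM and MDA-MB-231 exoRNeasy EVs at 812 ± 279 TPM (SD, n = 2 each). Neighbours among the last 4 groups overlapped. As a share of all miRNA reads, the means went from 4.02% in PC3 UC EVs to 0.0812% in MDA-MB-231 exoRNeasy EVs.

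The replicates of a group differed by 1.03 to 1.22 times in PC3, by 3.90 times in MDA-MB-231 next-gen ATPS EVs and by 5.96 times in MDA-MB-231 UC EVs. Among the 53 entries with at least 50 reads in both MDA-MB-231 UC libraries together, none had a larger ratio of replicate 2 to replicate 1 (log2 ratio 2.54), and the next in size, hsa-miR-138-5p, had a log2 ratio of -1.77. Among 30 such entries of MDA-MB-231 next-gen ATPS EVs it was again first (log2 ratio 1.94), before hsa-miR-182-5p at 1.17. hsa-miR-27a-3p, with 36 reads and so below that minimum, was farther apart in next-gen ATPS EVs than hsa-miR-361-3p, at 1156 and 5355 TPM.

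Between EV methods of PC3, the mean level of hsa-miR-361-3p was 14.9 times as high with next-gen ATPS and 15.1 times as high with UC as with exoRNeasy. Summed reads gave ratios of 14.9 (95% counting interval 8.94 to 27.0) and 15.2 (9.17 to 27.2). On the scale of the model used for all entries, log2(TPM + 1), the differences were 3.90 and 3.91 with a standard error of 0.84. The differences lay between 3.41 and 5.53 under the other scalings tried. The standard error rests on 1 spread pooled over all 8 groups, not on PC3 alone. On this scale the SD was 0.03, 0.20 and 0.10 for next-gen ATPS, UC and exoRNeasy EVs of PC3. It was 1.39 and 1.82 for next-gen ATPS and UC EVs of MDA-MB-231 (n = 2 each). Next-gen ATPS and UC EVs did not differ beyond their spread (ratio of UC to next-gen ATPS 1.02, counting interval 0.905 to 1.14), and the sign of their log2 difference, 0.02, changed with the setting (-0.60 to 1.08). Of the 39 entries with at least 50 summed reads in UC and exoRNeasy EVs, hsa-miR-361-3p had the highest ratio of UC to exoRNeasy (log2 ratio 3.88), followed by hsa-miR-107 at 2.04, with a median of 0.09. Of 22 such entries for next-gen ATPS it was also first (log2 ratio 3.86), followed by hsa-miR-27a-3p at 1.73, with a median of 0.37. Both places follow in part from how the miRNA was chosen.

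**Figure D2:**
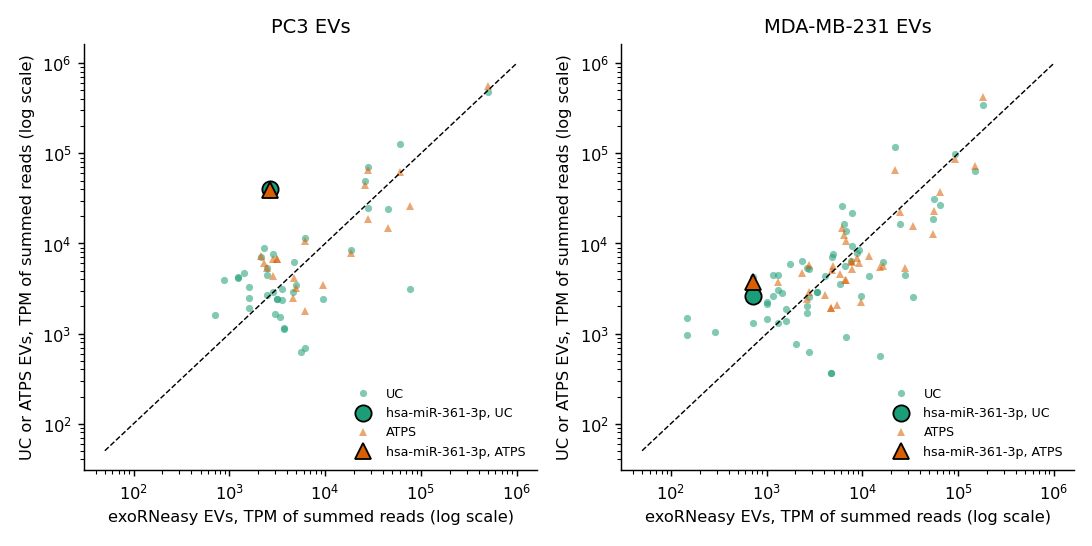
Each miRNA entry with at least 50 summed reads, with its level in exoRNeasy EVs on the x axis and in UC EVs (circles) or next-gen ATPS EVs (triangles) on the y axis, in TPM of the summed reads of a group (log scales), in PC3 at the left and MDA-MB-231 at the right; the dashed line marks equal levels. In PC3 both outlined symbols of hsa-miR-361-3p lie farther above the line than any other entry, with log2 ratios of 3.88 and 3.86.

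In MDA-MB-231 EVs the mean was again lowest with exoRNeasy, with smaller ratios, and next-gen ATPS had a higher mean than UC. The mean of next-gen ATPS EVs was 5.58 times that of exoRNeasy EVs, the ratio of summed reads was 5.19 (counting interval 2.08 to 16.7), and the libraries did not overlap. UC EVs had a mean 3.12 times that of exoRNeasy EVs with a ratio of summed reads of 3.58 (counting interval 1.495 to 11.2), and their libraries overlapped, since UC replicate 1 lay between both exoRNeasy libraries. Of 37 entries with at least 50 summed reads it had the highest ratio of next-gen ATPS to exoRNeasy (log2 ratio 2.25, before hsa-miR-222-3p at 1.61), while 7 of 59 entries had a higher ratio of UC to exoRNeasy than its log2 ratio of 1.71. The UC difference on the log2 scale was 1.17 (standard error 0.84) and became -0.11 without UC replicate 2. UC and next-gen ATPS EVs overlapped as well, and their log2 difference of -1.04 became 0.25 without UC replicate 1 and 0.46 with DESeq2.

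Compared with the cells that released them, PC3 EVs held more hsa-miR-361-3p in TPM when isolated by next-gen ATPS (1.59 times, counting interval of the summed ratio 1.41 to 1.75) or UC (1.61 times, 1.49 to 1.71), and these ratios depended on the scaling. Relative to reads with a mature name they were 1.10 and 1.24. Entries named as hairpins took different parts of each library: 4035 of 5027 reads of PC3 next-gen ATPS replicate 1 had a mature name, against 18691 of 34422 in PC3 cell replicate 1. The log2 difference between next-gen ATPS EVs and cells, 0.67, became -0.10 with edgeR and -1.08 with DESeq2, and that of UC EVs, 0.68, became 0.48 and 0.01. Both 0.67 and 0.68 were smaller than their standard error of 0.84. The level in PC3 exoRNeasy EVs was 9.35 times lower than in cells by the means and 9.52 times by summed reads (counting interval 5.76 to 17.0). That log2 difference of -3.23 (standard error 0.84) chose the miRNA. Its size ranged from -5.53 to -1.95 over the settings. That its sign held is no separate support, since the same values chose the miRNA. In the same comparison 91 of 103 entries with at least 50 summed reads had a higher ratio to cells and 11 a lower one.

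In MDA-MB-231 the level of all 3 EV groups lay below that of cells. It was 2.48 times lower for next-gen ATPS (summed reads 2.49, counting interval 1.86 to 3.40), 4.43 times lower for UC (3.61, 2.97 to 4.42) and 13.8 times lower for exoRNeasy (12.9, 5.50 to 40.0). These counting intervals leave out the spread between libraries. Ratios of single EV libraries to cell libraries ran from 0.142 to 0.767 for next-gen ATPS and from 0.0557 to 0.462 for UC. The log2 differences were -1.60, -2.64 and -3.81 (standard error 0.84 each). Without the cell library of 153 reads they were -1.36, -2.40 and -3.58. Centring on the species common to all libraries brought the next-gen ATPS difference to -0.17, and leaving out next-gen ATPS replicate 1 brought it to -0.62, so that it lay below 0 in every setting but its size did not hold.

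**Figure D3:**
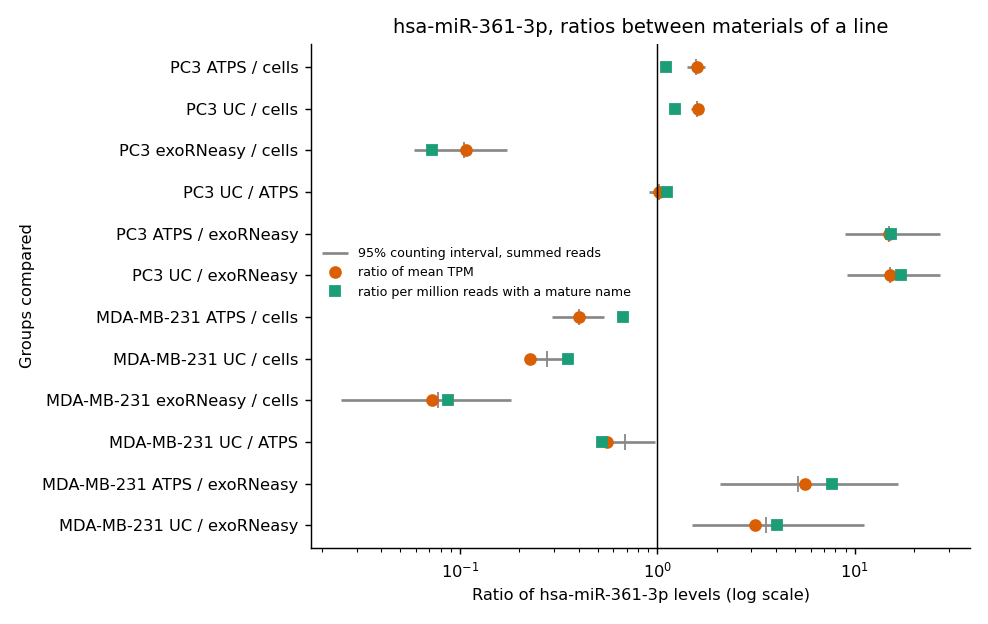
Ratios of hsa-miR-361-3p between materials of the same line (log scale), as ratios of mean TPM (circles), as ratios of levels relative to reads with a mature name (squares) and as ratios of summed reads (ticks) with exact 95% counting intervals (lines). The PC3 ratios to exoRNeasy lie at 14.9 and 15.1 and the ratios of exoRNeasy to cells at 0.107 in PC3 and 0.0722 in MDA-MB-231, whereas next-gen ATPS and UC lie above cells in PC3 and below them in MDA-MB-231 in TPM.

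The levels of hsa-miR-361-3p were higher in PC3 than in MDA-MB-231 for each material, with no overlap between the values of libraries. In cells, the 2 reads of MDA-MB-231 replicate 2 allow 1587 to 46421 TPM, which takes in the PC3 cell libraries. In exoRNeasy EVs, the 3 and 2 reads of MDA-MB-231 allow up to 1793 and 3640 TPM. These intervals overlap those of PC3 exoRNeasy EVs, which start at 1093 and 1123 TPM. The means differed by 2.21 times in cells (summed reads 2.68, counting interval 2.42 to 2.97), 8.73 times for next-gen ATPS (10.5, 7.80 to 14.3), 15.8 times for UC (15.4, 12.9 to 18.6) and 3.28 times for exoRNeasy (3.63, 1.26 to 12.8). These counting intervals leave out the spread between libraries. Ratios of single libraries ran from 5.41 to 21.7 for next-gen ATPS and from 8.35 to 60.5 for UC. The log2 differences of 1.17, 3.44, 4.49 and 1.75 (standard error 0.84 each) kept their sign under all settings. Relative to reads with a mature name the ratios were 2.84, 4.64, 9.90 and 2.36, so that the EV ratios were smaller and that of cells larger on this scale.

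hsa-miR-361-5p was close to the limit of detection in each material. PC3 cells held 2 and 10 reads (58.1 and 103 TPM) and PC3 UC EVs 7 and 3 reads (479 and 207 TPM). There was no read in either PC3 next-gen ATPS library, where 0 reads allow a level of up to 597 and 650 TPM, and 0 and 1 read (399 TPM) in exoRNeasy EVs. MDA-MB-231 cell replicate 1 held 2 reads (45.1 TPM) and UC EVs 3 and 1 (121 and 37.4 TPM), and the other 5 MDA-MB-231 libraries held none. The limits that 0 reads allow in next-gen ATPS EVs lay above the UC levels, so a difference between these methods was not detectable at this depth. The hairpin entry hsa-mir-361 had at most 5 reads in any library and none in 12 of the 16.

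The levels of hsa-miR-361-5p were not used to choose it and were tested in 19 comparisons with limma and Benjamini-Hochberg adjustment over 566 entries. None had an adjusted p under 0.05, and 4 had an unadjusted p under 0.05. The smallest adjusted p was 0.195, for next-gen ATPS EVs against cells of PC3. Both of these EV libraries had 0 reads, whose limits lie above the levels of the cells, and the log2 difference of -6.29 became 0.23 with a pseudocount scaled to the value of 1 read, so that no direction is shown. edgeR also made 0 calls (1 at an unadjusted p under 0.05, smallest adjusted p 0.392), as did DESeq2 (0 at an unadjusted p under 0.05), which gave no adjusted p in 13 comparisons. The difference between UC and next-gen ATPS EVs of PC3 had the smallest unadjusted p (log2 difference 8.30, standard error 2.72, limma adjusted p = 0.309), and its size depends on the pseudocount, since the next-gen ATPS libraries were at 0. The EV minus cell differences of hsa-miR-361-5p did not differ between the lines by limma's interaction terms (adjusted p = 0.696, 0.965 and 0.992 for next-gen ATPS, UC and exoRNeasy), terms that called 0.353%, 0.177% and 0.177% of all entries. The residual SD of hsa-miR-361-5p in this model was 2.62 on the log2 scale, against 0.84 for hsa-miR-361-3p.

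Nearly all reads of the pair came from the 3p arm, 5495 of 5524 or 99.5% (95% exact interval 99.2 to 99.6). By group the 3p share was 99.6% in PC3 cells, 100% for next-gen ATPS, 99.2% for UC and 93.8% for exoRNeasy, where it rests on 15 reads against 1 (interval 69.8 to 99.8). In MDA-MB-231 it was 99.5% in cells, 100% with next-gen ATPS, 97.1% with UC (interval 92.7 to 99.2) and 100% of 5 reads with exoRNeasy (interval 47.8 to 100). The lowest share of a library with more than 10 reads was 85.7% (interval 63.7 to 97.0) in MDA-MB-231 UC replicate 1, against 99.1% in replicate 2.

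Such a one-sided use of a hairpin was common in these libraries. The table names both arms of 74 hairpins, 39 of which had at least 20 reads in 1 group or more. Of these, 13 had a minor arm share of at most 0.525%, the share of miR-361, which is itself 1 of the 13. Of the 5 other hairpins with the most reads, miR-222 was also almost wholly 3p (99.97%), miR-425, miR-30a and miR-21 were mostly 5p (3p shares of 0.358%, 0.485% and 1.26%), and miR-221 used both arms (3p share 20.3%). The 3p share of miR-361 moved by 2.90 percentage points across the 6 groups with at least 20 reads. Over the 11 hairpins with such reads in at least 6 groups, miR-361 among them, the median was 2.78. The share of miR-221 moved by 47.1 points and that of miR-27a by 96.6 points, from 2.67% to 99.3% 3p.

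The entry most like hsa-miR-361-3p was hsa-miR-27a-3p, a miRNA made from the miR-23a, miR-27a and miR-24-2 cluster on chromosome 19. Its Pearson r on log2(TPM + 1) was 0.881 over 15 libraries, without MDA-MB-231 cell replicate 2, and Spearman's rho was 0.918. Next among 198 entries compared came hsa-miR-152-3p (r = 0.747), hsa-miR-339-3p (0.738), hsa-mir-100 (0.731) and hsa-mir-3615 (0.716). With the library of 153 reads included, r of hsa-miR-27a-3p was 0.224, since it had no read there, and 4 of the 5 entries were still among the first 5. These libraries are pairs of 8 groups and differ in depth, so the values describe likeness over the groups and entries with few reads partly share their zeros.

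The 3 of these 5 with a RefSeq mature sequence are shown for comparison with the seed of hsa-miR-361-3p, which none of them shares.
hsa-miR-27a-3p: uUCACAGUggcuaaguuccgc
hsa-miR-152-3p: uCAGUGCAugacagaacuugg
hsa-miR-339-3p: uGAGCGCCucgacgacagagccg
hsa-miR-27a-3p was at 4226 ± 470 TPM in PC3 cells, 7294 ± 1031 TPM for next-gen ATPS, 7071 ± 452 TPM for UC and 2227 ± 1361 TPM for exoRNeasy (SD, n = 2 each). Its order of PC3 groups was thus close to that of hsa-miR-361-3p, with smaller distances. In MDA-MB-231 its next-gen ATPS libraries lay at 1156 and 5355 TPM and its exoRNeasy libraries at 505 and 1228 TPM. hsa-miR-152-3p and hsa-miR-339-3p had no read in the 4 exoRNeasy libraries, and at most 24 reads in any group. Unlike hsa-miR-361-3p, hsa-mir-100 and hsa-mir-3615 had lower means in PC3 next-gen ATPS and UC EVs than in PC3 cells. The means of hsa-mir-100 were 8052 TPM in cells, 2594 TPM for next-gen ATPS and 5355 TPM for UC. Those of hsa-mir-3615 were 918, 208 and 206 TPM, with 2 and 6 reads in these EV groups.

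**Figure D4:**
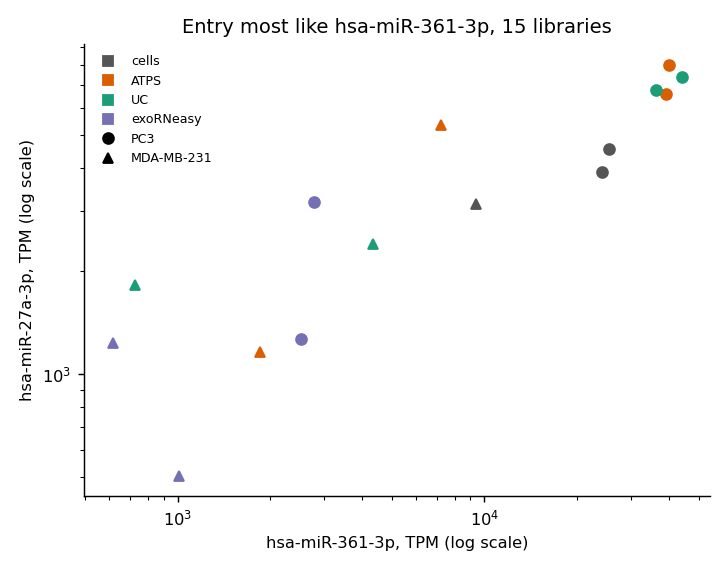
Levels of hsa-miR-361-3p (x axis) and hsa-miR-27a-3p (y axis) in TPM on log scales, 1 point for each of 15 libraries, coloured by material and shaped by cell line. The next-gen ATPS and UC libraries of PC3 lie at the upper right, above 36238 TPM of hsa-miR-361-3p, and the 8 points at its lowest levels are the 6 MDA-MB-231 EV libraries and the 2 exoRNeasy libraries of PC3.

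A list of other miRNAs of chromosome X sets the gene beside neighbours on the same chromosome. It left out names also made from a gene on another chromosome and may not hold every X-linked miRNA. The list matched 59 entries besides those of miR-361, and 46 were tested. The called ones were the products of the miR-221 and miR-222 cluster, which is known to repress the cell cycle inhibitor p27, and of miR-500. In PC3, 4 of 46 were lower and 0 higher with next-gen ATPS than in cells (limma adjusted p under 0.05), where 5.83% of all 566 entries were called. The same held for UC EVs, with 5.3% of all entries called, and for exoRNeasy EVs, with 6.54%. hsa-miR-222-3p was at 159337 TPM in PC3 cells and 43742, 49399 and 26379 TPM in EVs from next-gen ATPS, UC and exoRNeasy (log2 differences -1.93, -1.69 and -2.61, limma adjusted p = 0.0107, 0.0220 and 0.00142, lower in 2 of 2 libraries each). The log2 differences of hsa-mir-222 were -3.73, -2.99 and -3.36 and those of hsa-miR-221-5p were -4.35, -3.45 and -3.04. hsa-miR-500a-3p had 9 reads in PC3 cells and 0 in each of the 3 EV groups, and since 0 reads allow up to 205 to 1196 TPM in these EV libraries against 65.0 TPM in cells, this call was not detectable as a difference in level. The median log2 difference of the X-linked entries was -2.38, -1.75 and -2.21 for next-gen ATPS, UC and exoRNeasy, and that of all entries -1.75, -1.06 and -1.75, over entries of which many had no read in EVs. edgeR called 4, 3 and 5 X-linked entries for next-gen ATPS, UC and exoRNeasy against PC3 cells, and DESeq2 called 5, 3 and 6. No X-linked entry was called after centring on the common species or without the filter on low values.

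In MDA-MB-231, 3 X-linked entries were lower with next-gen ATPS than in cells (1.59% of all entries called), 0 for UC (1.24%) and 2 for exoRNeasy (4.77%). For UC against cells 6 had an unadjusted limma p under 0.05. edgeR called 1, 1 and 6 for next-gen ATPS, UC and exoRNeasy against these cells, DESeq2 called 3, 0 and 5, and limma called 0 in all 3 without the filter on low values. Those lower with next-gen ATPS were hsa-miR-222-3p, hsa-mir-222 and hsa-miR-221-5p, at log2 differences of -1.69, -2.40 and -3.03 (limma adjusted p = 0.0489, 0.0378 and 0.0477), and those lower with exoRNeasy were hsa-miR-222-3p and hsa-mir-222, at -3.27 and -3.72. The count over the 3 EV kinds rose from 3 to 9 entries when either cell library was left out.

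Between EV methods, no X-linked entry was called for UC against next-gen ATPS (0.353% of all entries called in PC3 and 0.707% in MDA-MB-231) or for next-gen ATPS against exoRNeasy (1.06% and 1.59%), nor for UC against exoRNeasy in PC3 (1.59%). At an unadjusted limma p under 0.05 these 5 comparisons held 1, 5, 0, 4 and 4 X-linked entries in that order, edgeR called 0 in each, and DESeq2 called 1 in the last and 0 in the others. In MDA-MB-231 hsa-miR-222-3p was higher in UC than in exoRNeasy EVs (2.12% of all entries called), with 115667 against 23344 TPM and a log2 difference of 2.28 (limma adjusted p = 0.00486, higher in 2 of 2 libraries). No such entry was called without UC replicate 2 or either exoRNeasy replicate of MDA-MB-231.

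Between the lines, 1 X-linked entry, hsa-miR-500a-3p, was called higher in PC3 cells (4.24% of all entries called), on 9 reads against 0. The 0 reads of the MDA-MB-231 cell libraries allow up to 67.6 and 19608 TPM, against a mean of 65.0 TPM in PC3 cells, so this was not detectable as a difference in level either. None was called by limma in next-gen ATPS EVs (1.41%) or UC EVs (2.3%), where 5 and 9 had an unadjusted p under 0.05, edgeR called 1 and 2, and DESeq2 called 0 and 2. In exoRNeasy EVs (3.53%) hsa-miR-500a-5p and hsa-mir-500b were called higher in PC3, with 21 reads against 0. Both entries had the same values in these exoRNeasy libraries and come from near-identical copies, so they are uncertain and not separate observations. In PC3 UC EVs their summed reads differed slightly, at 1133 TPM for hsa-miR-500a-5p and 1167 TPM for hsa-mir-500b.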

How the data were processed

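Small RNA was sequenced from PC3 and MDA-MB-231 cells and their EVs, in 16 libraries of 8 groups, which were assigned from the labels. The authors applied a Q20 limit in windows of 4 bases and a length range of 18 to 35 bases, then used STAR on hg38 and COMPSRA, for which the sources used here give no version. Multimapping reads counted, with more weight on unique ones. Although named TPM, the deposited values are CPM over the miRNA reads of a library, with no length term. Within 0.1 read, 100% of values were whole multiples of 1 read, so reads were recovered.

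Levels were compared on log2(TPM + 1) with limma 3.58.1 (R 4.3.3; trend and robust options; 1 mean per group) over the 566 entries with at least 1 TPM in 2 libraries, with Benjamini-Hochberg adjustment within a comparison and a threshold of 0.05. The test had been planned for TPM, and fitted CPM equally, as each is compared on a log scale. This scale can overstate or understate changes of entries with few reads. edgeR 4.0.16 (quasi-likelihood, TMM) and DESeq2 1.42.0 were run on recovered reads as alternatives, beside other pseudocounts, filters, scalings, a replicate block and each library left out. The share of 3p reads, ranks over entries with at least 50 summed reads and counting intervals were computed with SciPy 1.17.1, and the hairpin was folded with RNAfold 2.7.2. The named entries were the members, the 5 entries most correlated with hsa-miR-361-3p among those with a read in at least 8 of 15 libraries, X-linked entries past the threshold and the 5 other hairpins with the most reads. hsa-miR-107, hsa-miR-138-5p and hsa-miR-182-5p were named as the nearest in rank, after their values were seen. Members, lists and tests were chosen with earlier results of these data known. The circRNA and snoRNA tables were not used here.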

Additional observations from a re-analysis of the deposited data

Results flagged for a closer look

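In TPM, the level of hsa-miR-361-3p in next-gen ATPS and UC EVs relative to cells went in opposite directions in the 2 lines. In PC3 both next-gen ATPS libraries lay above both cell libraries (log2 difference 0.67), whereas in MDA-MB-231 both lay below (-1.60). With UC the differences were 0.68 in PC3 and -2.64 in MDA-MB-231, again with all libraries of a group on 1 side. The difference between the lines was not tested, since the miRNA was chosen by its values. The PC3 differences were smaller than their standard error of 0.84. The PC3 next-gen ATPS value turned to -0.10 with edgeR and -1.08 with DESeq2, and the PC3 UC value fell to 0.01 with DESeq2. Relative to reads with a mature name, the PC3 ratios to cells were 1.10 for next-gen ATPS and 1.24 for UC. The direction in PC3 is therefore uncertain.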

How the results depend on the processing

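The differences of hsa-miR-361-3p carry no test. Of their values, 133 of 160 under other settings and 240 of 256 with a library left out stayed within 0.84 of their main value. That limit is the residual SD over all 8 groups. Leaving out a library changes only comparisons that use its group, and the filters and the replicate block do not change these differences. Most of the values that stayed were therefore fixed in advance. A value within that limit could still change sign. PC3 next-gen ATPS against cells did so with edgeR, and PC3 UC against next-gen ATPS did so under some settings (-0.60 at the lowest). Values that moved further are given here as log2 differences. Quantile normalization gave 2.07 for PC3 against MDA-MB-231 in cells and 2.93 in exoRNeasy EVs. Centring on common species gave 2.06 for PC3 next-gen ATPS against cells, -1.95 for PC3 exoRNeasy against cells, -0.17, -1.76 and -2.26 for MDA-MB-231 next-gen ATPS, UC and exoRNeasy against cells, and 2.46, 4.69, 5.68 and 2.77 between the lines in cells, next-gen ATPS, UC and exoRNeasy. Scaling to reads with a mature name, chosen after seeing the data, gave 2.45 between the lines in next-gen ATPS EVs. edgeR gave -4.36 for PC3 exoRNeasy against cells, 4.83 for PC3 UC against exoRNeasy, -1.13 and 2.62 for MDA-MB-231 UC against cells and exoRNeasy, and 2.36 between cells. DESeq2 reversed PC3 next-gen ATPS against cells (-1.08) and MDA-MB-231 UC against next-gen ATPS (0.46), and gave -5.53 for PC3 exoRNeasy against cells, 1.08 and 5.53 for PC3 UC against next-gen ATPS and exoRNeasy, -1.30 and -4.91 for MDA-MB-231 UC and exoRNeasy against cells, 3.15 and 3.61 for MDA-MB-231 next-gen ATPS and UC against exoRNeasy, and 2.47 between cells. The cause was not tested. Leaving out 1 library gave ranges of -2.58 to -0.62 for MDA-MB-231 next-gen ATPS against cells, -3.93 to -1.35 for UC against cells, 1.23 to 3.19 for next-gen ATPS against exoRNeasy, -2.33 to 0.25 for UC against next-gen ATPS and -0.11 to 2.46 for UC against exoRNeasy, and of 2.46 to 4.42 and 3.20 to 5.78 between the lines in next-gen ATPS and UC EVs, all set by the next-gen ATPS and UC libraries of MDA-MB-231. Single libraries gave 3p shares of 100% in PC3 exoRNeasy replicate 1 and MDA-MB-231 cell replicate 2 and 85.7% in MDA-MB-231 UC replicate 1. hsa-miR-361-5p was called in none of 19 comparisons under any setting. The X-linked entries called, 4 for PC3 EVs against cells, 1 between EV methods, 3 for MDA-MB-231 EVs against cells and 3 between lines, depended on the setting. Between EV methods the count was 2 with log2(TPM + 10), 3 with a pseudocount of a part of 1 read, 0 without a filter, 2 with quantile normalization, 0 with centring, 6 per mature reads, 3 with edgeR and 4 with DESeq2. For MDA-MB-231 EVs against cells it was 5, 5 and 0 with the first 3 of these, 7 with edgeR and 5 with DESeq2. For PC3 EVs against cells it was 0 without a filter and 0 with centring. Between lines it was 10 with the read-based pseudocount, 9 per mature reads, 7 with edgeR and 5 with DESeq2. With 1 library left out the 4 counts ranged over 2 to 7, 0 to 8, 2 to 9 and 1 to 11, with the highest values without either MDA-MB-231 cell library. Replicate numbers did not pair the libraries (correlations of replicate differences from -0.09 to 0.09 over 28 pairs of groups, 0 over 0.1), and a replicate block left all 4 counts and the hsa-miR-361-5p calls as they were, its value for UC against next-gen ATPS of PC3 being 8.30 (limma adjusted p = 0.390). Depth limits most what exoRNeasy EVs (2 to 8 reads of hsa-miR-361-3p) and MDA-MB-231 cell replicate 2 (153 miRNA reads) can show.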
